A study of Mus musculus with 4 samples.

Results

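Heat shock protein and DnaJ chaperone genes were followed in the liver of untreated mice with and without DDI2. They were taken as the protein-coding genes whose mouse symbol begins with Hsp or Dnaj, leaving out Hspg2, a matrix proteoglycan, and adding the transcription factors Hsf1 and Hsf2. This gave 76 of the 48709 gene identifiers in the count files, of which 39 encode proteins of the cytosol, 14 of the endoplasmic reticulum (ER), 8 of mitochondria and 13 of other or unassigned places, and 2 are the regulators. The compartment of each was assigned from textbook knowledge of where the protein works.

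Chaperones of the HSP70 family hold unfolded protein segments and release them in a cycle driven by ATP. DnaJ proteins (HSP40) bring clients to HSP70 and start its ATP hydrolysis, HSP110 proteins exchange the bound nucleotide, HSP90 finishes the folding of kinases and receptors, and small HSPs hold unfolded proteins until HSP70 can take them. In the cytosol, HSF1 switches on many of these genes when misfolded proteins build up, as happens when the proteasome is blocked, while ER chaperones follow the unfolded protein response and mitochondrial chaperones fold proteins imported into the matrix. DDI2 is a protease that cleaves the transcription factor NRF1, which drives proteasome subunit genes.

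Both groups were adult C57BL/6 mice that carried floxed Ddi2 alleles. The 2 WT libraries came from littermates without Cre recombinase, and the 2 DDI2-KO libraries from mice with Cre under the albumin promoter, so that deletion is directed to hepatocytes, while whole liver also holds other cells. The study used both sexes, and the sex of each animal is not given in the sources used here. Poly(A) RNA was sequenced from whole liver, and the values are raw numbers of reads per gene, with totals on genes of 34109018 and 31532247 for WT and of 25582344 and 22501208 for DDI2-KO. Reads on Ddi2 itself numbered 4749 and 3812 for WT against 4068 and 3777 for DDI2-KO, or 141.2 and 123.4 scaled CPM (the unit defined below) against 157.2 and 164.4, so the targeted gene was higher in both libraries labelled DDI2-KO, opposite to a loss. The values are counts over the whole gene, so the part between the LoxP sites could not be looked at apart. The deletion was not tested here, and DDI2-KO below stands for the libraries that carry this label. The study genotyped its animals by PCR and probed DDI2 protein on immunoblots of WT and DDI2-KO liver. Neither could be tied here to these libraries.

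Values are given as scaled CPM, a read count relative to library size, with library sizes scaled by TMM. A log2 fold change is the edgeR estimate for DDI2-KO over WT, positive where DDI2-KO is higher, and a gene was called where its p, adjusted over all 13699 genes tested, was under 0.05. In whole tissue, fewer cells of a type and less RNA per cell cannot be told apart. Of the 76 genes, 64 passed the filter on low counts and were tested. The 12 that were not tested had at most 5 reads in any library, and 6 of them had none in all 4 libraries. They were the cytosolic Dnajb3, Dnajb7, Dnajb8, Dnajc6, Hspa1a, Hspa1l, Hspb2, Hspb3, Hspb7 and Hspb9, and the vesicle proteins Dnajc5b and Dnajc5g.

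Short promoter stretches are shown, because they carry the sequence elements through which the cytosolic and ER branches are known to be switched on. The heat shock element, bound by HSF1, was searched as GAANNTTCNNGAA, and the ER stress element, bound by ATF6 with NF-Y, as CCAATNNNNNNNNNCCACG. The antioxidant response element, bound by the NRF family, was searched as TGACNNNGC. Each was sought on both strands of the RefSeq windows of GRCm38.p6 that run from 250 bases before to 50 bases after a transcript start, where 61 of the 76 genes had 78 windows. The heat shock element was found in 4 of these genes and in 6 of their windows (7.69%), against 0.603% of all 32851 windows. The genes were Dnajb6, Hsph1 and the pair Hspd1 and Hspe1, whose windows overlap head to head. Capitals mark the fixed letters of the element, each stretch is written 5′ to 3′ on the strand of its gene, and in Hsph1 the element lies on the other strand.
Dnajb6, chr5:29735846-29735870, plus strand, 46 bases before the start: ctccgaGAAtcTTCcgGAAcgctag
Hspd1, chr1:55088053-55088077, minus strand, 139 bases before the start: cttccgGAAggTTCtaGAAcggacc
Hspe1, chr1:55088058-55088082, plus strand, 84 bases before the start: gttctaGAAccTTCcgGAAggcccc
Hsph1, chr5:149636282-149636306, minus strand, 15 bases after the start: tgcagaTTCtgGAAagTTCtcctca

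The stretches of Hspd1 and Hspe1 overlap on opposite strands, so that both belong to 1 run of alternating GAA and TTC triplets between the 2 genes. Of the called genes, Dnajb6 held a heat shock element and Dnaja4 had no match to any of the 3 elements in its window. The ER stress element was found in 3 genes, Hspa5, Hsp90b1 and Dnajc3, and in 3 of the 78 windows (3.85%), against 0.119% of all windows. Hsp90b1 held it on both strands.
Hspa5, chr2:34772020-34772048, plus strand, 65 bases before the start: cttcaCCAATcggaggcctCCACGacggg
Hsp90b1, chr10:86705633-86705661, minus strand, 212 bases before the start: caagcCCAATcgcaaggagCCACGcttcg
Hsp90b1, chr10:86705528-86705556, minus strand, 107 bases before the start: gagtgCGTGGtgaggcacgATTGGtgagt
Dnajc3, chr14:118937822-118937850, plus strand, 105 bases before the start: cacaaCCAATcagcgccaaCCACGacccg

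The antioxidant response element, a shorter and less strict motif, was found in 13 of the 78 windows (16.7%), against 12.4% of all windows. It was held by 10 genes, among them Dnajb1, Hspbap1 and Hsph1, and by neither Dnaja4 nor Dnajb6. A match to these letters is a description of the sequence and no evidence that a factor binds there. A gene without a match may hold an element that differs from these letters or lies outside its window. Genes without a window were not searched.

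Of the 64 genes tested, 2 rose in DDI2-KO, Dnaja4 and Dnajb6, both cytosolic DnaJ proteins, and none fell. This was 3.12% of the genes tested, against 2.53% of all genes (1.33% called higher and 1.20% called lower). Under DESeq2, 3 genes were called, beside 911 of 12339 over all genes. Limma, the package the study used, called none, beside 136 of 13699 over all genes with voom and 139 with a trend. An unadjusted p under 0.05 was reached by 13 genes in edgeR (20.3%, against 23.5% of all genes), 8 of them higher and 5 lower in DDI2-KO. The number was 13 in DESeq2, 16 in limma-voom and 15 in limma-trend, where the shares of all genes at this p are not given here. Of the 64 log2 fold changes, 31 were positive and 33 negative, with a median of -0.0242 beside -0.0148 over all genes. Both DDI2-KO libraries lay above both WT libraries in 20 genes (31.2%, against 28.0% of all genes) and below them in 18 (28.1%, against 27.7%), and the groups overlapped in 26. These shares were close to those of all genes and are no result about the chaperone genes.

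**Figure D1:**
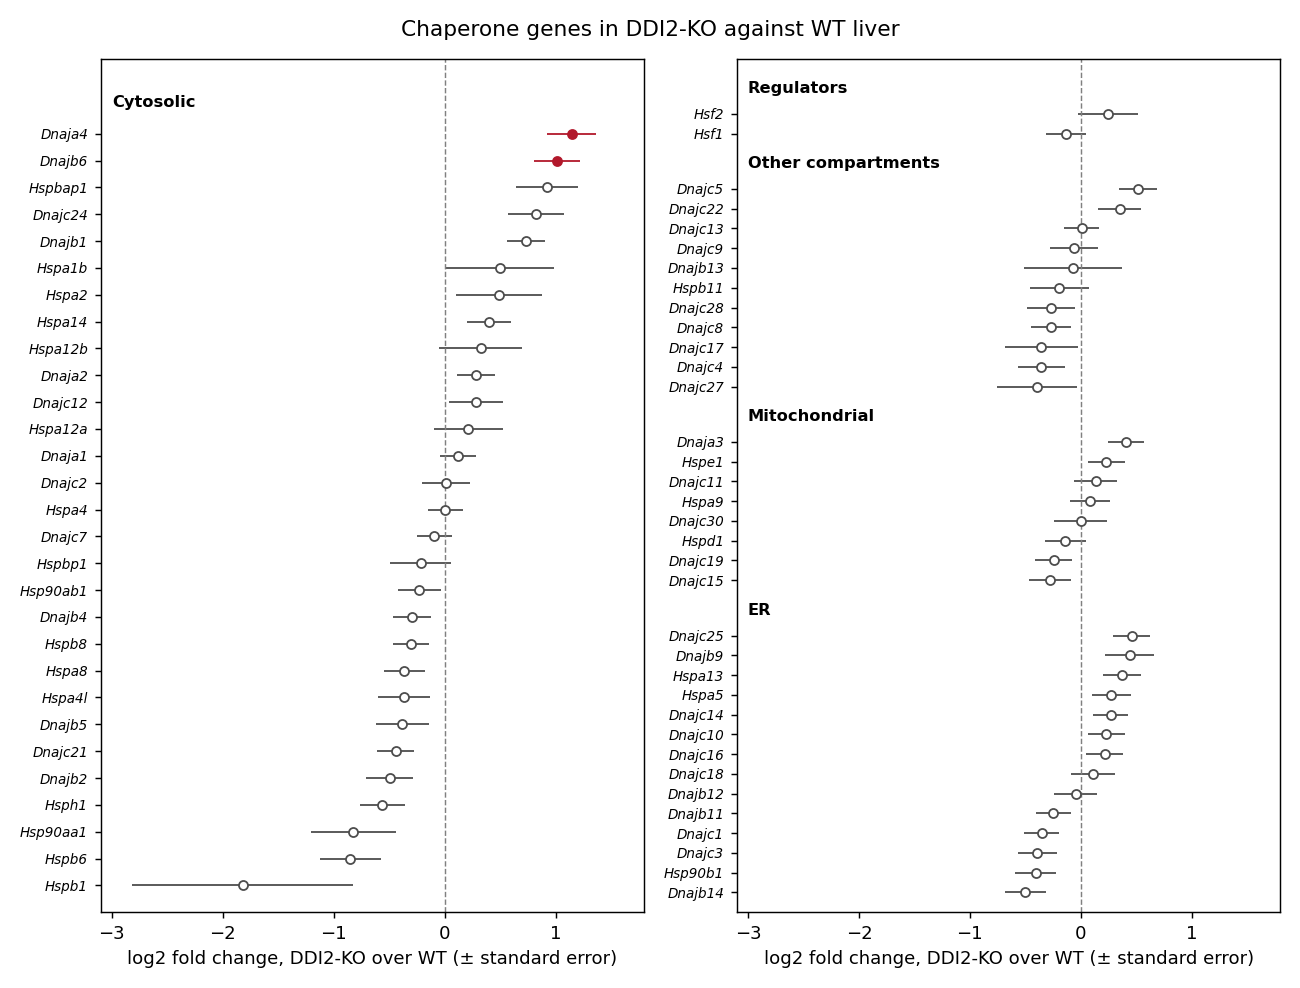
Log2 fold change of DDI2-KO over WT for each of the 64 chaperone genes tested, by compartment. Points are edgeR estimates, bars their standard errors, and filled red points the called genes. Dnaja4 and Dnajb6 are the filled points, at 1.14 and 1.01, and Hspb1, at -1.82, has the widest bar.

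Summed over the 76 genes, the level was 5121 and 5127 scaled CPM in WT and 5038 and 4683 in DDI2-KO, lower in both DDI2-KO libraries by a margin that was small for replicate 1. Compared per length, as scaled CPM per kilobase of exon, the highest WT mean levels were those of Hsp90ab1 (259.3), the constitutive cytosolic HSP90, Hsp90b1 (201.4), the HSP90 of the ER, and Hspa5 (130.7), the HSP70 of the ER known as BiP. Next came the mitochondrial Hspa9 (119.0) and Hspd1 (103.3), then the constitutive cytosolic HSP70, Hspa8 (84.19). In single WT libraries Hspa5 held 125 and 136 and Hspa9 106 and 132, so these neighbours overlapped, while Hspd1, at 102 and 105, lay just below Hspa9. By uniquely placed reads, each compartment thus had a highly expressed HSP70, and the inducible HSP70 genes were near the limit of detection. Length was taken over all annotated exons of a gene together, 4229 bases for Hspa5 and 4032 for Hsp90b1. The order of genes in either group can depend on this choice, and the length of a single transcript was not tried. The levels were not corrected for 50-base stretches of a gene's longest transcript that also occur, on either strand, in transcripts of other genes. The shared part was 52.7% in Hspa8, 44.8% in Hspd1, 66.3% in Hspa1a and 62.3% in Hspa1b. In Hspa5, Hspa9, Hsp90ab1 and Hsp90b1 it was 0%, 4.1%, 4.49% and 10%, and its part in the order was not tested. In DDI2-KO the mean level per kilobase of Hspa5 (158.2) was above that of Hsp90b1 (151.8), the reverse of the order in WT, and there their libraries overlapped, with 170 and 146 for Hspa5 and 167 and 137 for Hsp90b1.

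**Figure D2:**
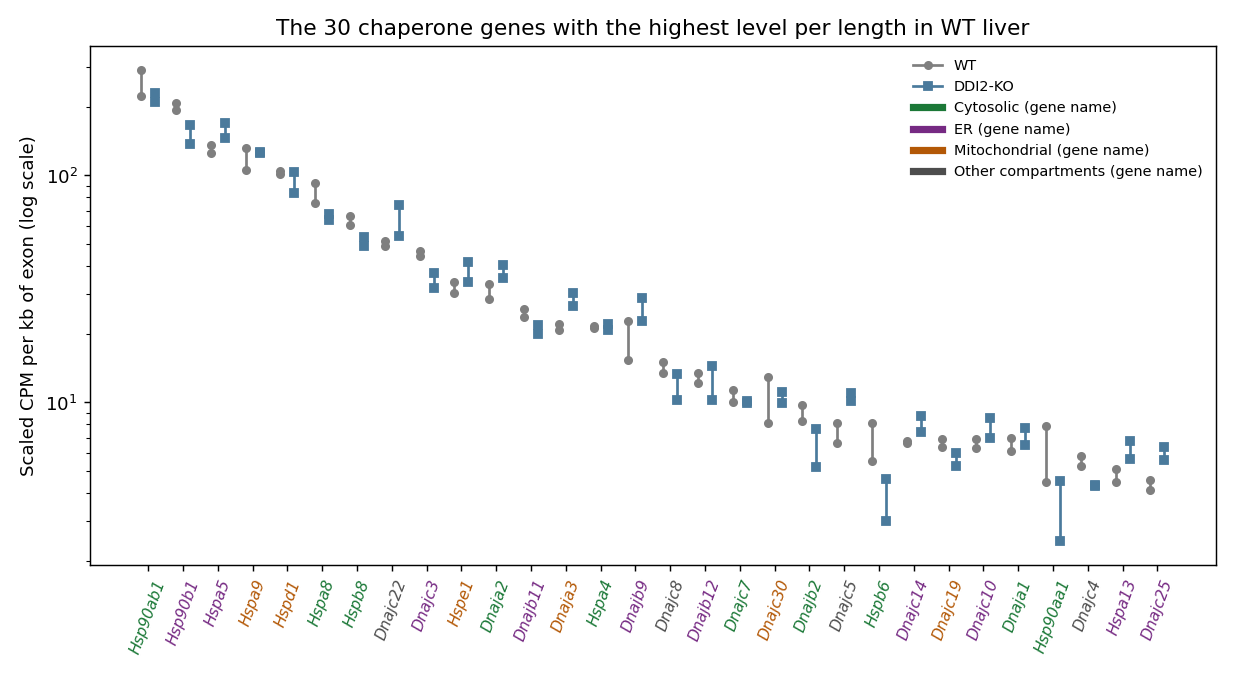
Level per length of the 30 chaperone genes with the highest mean in WT, in scaled CPM per kilobase of exon on a log scale. Circles are single WT libraries, squares single DDI2-KO libraries, lines join libraries of a group, and the colour of a gene name gives its compartment. Hsp90ab1 leads at a WT mean of 259.3, followed by Hsp90b1 at 201.4 and Hspa5 at 130.7.

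Among the cytosolic genes, both called genes were DnaJ proteins, and the estimates were spread over both signs. Of 39 cytosolic genes 29 were tested, with 15 positive and 14 negative log2 fold changes, a median of 0.0052 (-0.0481 with upper-quartile factors) and 2 called (6.9%, against 2.53% of all genes). In edgeR, 9 of the 29 reached an unadjusted p under 0.05 (31%, against 23.5% of all genes), 5 higher and 4 lower in DDI2-KO. Both DDI2-KO libraries were above WT in 9 of these genes (31%, against 28.0% of all genes) and below in 8 (27.6%, against 27.7%). The 13 cytosolic DnaJ genes tested (of 17) had 8 positive and 5 negative values, from -0.49 for Dnajb2 to 1.14 for Dnaja4, and a median of 0.12.

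Dnaja4, a DnaJ protein of the type that carries a zinc-binding region and is induced by heat, was counted with 134 and 102 reads in WT against 208 and 186 in DDI2-KO. After scaling these were 3.986 and 3.301 CPM in WT and 8.036 and 8.094 CPM in DDI2-KO. The DDI2-KO values lay close together and well above both WT values. The log2 fold change was 1.14 (SE 0.22, n = 2 per group, adjusted p = 0.0438 from edgeR). The call was made in 8 of the 14 alternatives, with adjusted p from 0.00143 to 0.165, and it was lost without WT replicate 1 (0.119), without WT replicate 2 (0.165) and without DDI2-KO replicate 1 (0.0604). Dnaja4 lies on chromosome 9 (54698873 to 54716315, plus strand), where 44.1% of its exon bases are also exon of Wdr61 on the other strand. Wdr61 had 40.39 and 46.19 scaled CPM in WT against 56.60 and 55.61 in DDI2-KO, higher in both DDI2-KO libraries as Dnaja4 was, and its log2 fold change was 0.37 (SE 0.16, adjusted p = 0.197 from edgeR). The library kit keeps the strand, but the strand setting of the counting is not given in the sources used here, so the count of Dnaja4 is uncertain, and the part of Wdr61 reads in it was not tested.

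Dnajb6, a DnaJ protein known to keep aggregation-prone proteins such as those with long glutamine tracts in solution, was counted with 158 and 150 reads in WT against 232 and 238 in DDI2-KO. This was 4.699 and 4.855 scaled CPM in WT and 8.963 and 10.36 in DDI2-KO. The DDI2-KO values were again clear of the WT values, which lay close together. The log2 fold change was 1.01 (SE 0.21, n = 2 per group, adjusted p = 0.0472 from edgeR). The call was made in 5 of the 14 alternatives (adjusted p from 0.00286 to 0.206) and was lost without each library in turn, at 0.206 and 0.153 without WT replicates 1 and 2 and at 0.0509 and 0.0654 without DDI2-KO replicates 1 and 2. Of the stretches of 50 bases in its longest transcript 42.8% also occur, on either strand, in transcripts of other genes. Among these is the pseudogene Gm2541, which was listed at 0 reads in every library.

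Next in size among the positive values were 3 more cytosolic genes that did not pass the threshold. Dnajb1, the main heat-inducible DnaJ partner of HSP70, had 11.72 and 12.91 scaled CPM in WT and 21.29 and 19.67 in DDI2-KO, a log2 fold change of 0.73 (SE 0.17, adjusted p = 0.0628 from edgeR). Its groups did not overlap, and it was called with a replicate block (0.0363), without a filter on low counts (0.0113) and by DESeq2 (0.0345). Hspbap1, a protein that binds the small HSP HSPB1, had 1.844 and 2.363 scaled CPM in WT and 3.709 and 4.264 in DDI2-KO, a log2 fold change of 0.92 (SE 0.28, adjusted p = 0.104 from edgeR, and 0.0477 with no filter on low counts). Dnajc24, which takes part in making diphthamide on elongation factor 2, had 2.796 and 2.525 in WT and 4.211 and 5.222 in DDI2-KO (log2 fold change 0.82, SE 0.26, adjusted p = 0.112 from edgeR). In both genes the DDI2-KO values also lay above the WT values. Dnaja1, a constitutive cytosolic member with a zinc-binding region, had overlapping values of 60.11 and 52.63 in WT and 56.14 and 66.36 in DDI2-KO (log2 fold change 0.12, adjusted p = 0.710 from edgeR).

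**Figure D3:**
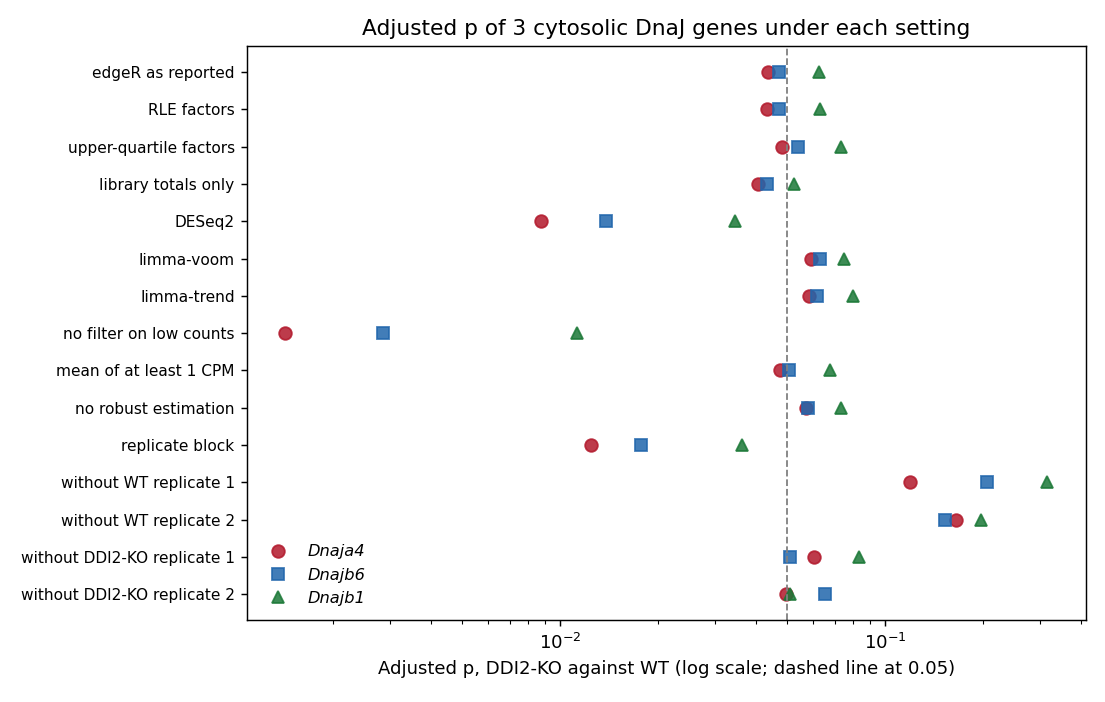
Adjusted p of Dnaja4, Dnajb6 and Dnajb1 for DDI2-KO against WT under the reported edgeR fit and 14 alternatives, on a log scale, with a dashed line at 0.05. Dnaja4 lies left of the line in 8 alternatives and Dnajb6 in 5, and the values from 0.119 to 0.316 are those without a WT library.

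The inducible HSP70 genes, the classic readout of HSF1, drew few counted reads in either group. Hspa1a drew 3 and 1 reads in WT against 3 and 2 in DDI2-KO, at or below the 3 reads taken as the smallest detectable level, and was not tested. Hspa1b drew 16 and 17 reads in WT against 13 and 22 in DDI2-KO, with a log2 fold change of 0.50 and a standard error of 0.49 (adjusted p = 0.589 from edgeR). The values overlapped, and without DDI2-KO replicate 2 the log2 fold change of Hspa1b was -0.0195. The 2 genes share 62.3% of the 50-base stretches of Hspa1b, so reads can be lost or moved between them. Hspa8 had 325.4 and 398.8 scaled CPM in WT and 289.8 and 273.3 in DDI2-KO, a log2 fold change of -0.36 (SE 0.18, adjusted p = 0.270 from edgeR), with both DDI2-KO libraries lower. Of its 50-base stretches 52.7% also occur in other genes, mostly pseudogenes.

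The HSP90, HSP110 and small HSP genes of the cytosol had negative or near-zero values, and none was called. Hsp90aa1, the inducible HSP90, had 30.96 and 17.61 scaled CPM in WT and 17.81 and 9.573 in DDI2-KO. In both groups replicate 1 was the higher library, and the groups overlapped by the narrow gap between 17.61 and 17.81. Its log2 fold change was -0.82 (SE 0.38, adjusted p = 0.259 from edgeR), and with a replicate block its adjusted p was 0.0162. Hsp90ab1 had 879.7 and 675.7 in WT and 692.2 and 632.9 in DDI2-KO, also overlapping (log2 fold change -0.23, SE 0.19, adjusted p = 0.516 from edgeR). Of the 50-base stretches 58.5% in Hsp90aa1 and 4.49% in Hsp90ab1 are shared with other genes.

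Hsph1, the heat-inducible HSP110, had 32.33 and 22.66 scaled CPM in WT and 18.85 and 18.41 in DDI2-KO, with both DDI2-KO libraries lower (log2 fold change -0.56, SE 0.20, adjusted p = 0.1499 from edgeR). The HSP110 proteins Hspa4 and Hspa4l had overlapping values, with log2 fold changes of 0.01 and -0.37. Hsph1 and Dnajb6 both held a heat shock element in the windows above, and their estimates had opposite signs.

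Of the 7 small HSP genes 3 were tested and all 3 had negative values. Hspb6, a small HSP best known from muscle, had 18.68 and 12.69 scaled CPM in WT and 6.915 and 10.53 in DDI2-KO, with both DDI2-KO libraries lower (log2 fold change -0.85, SE 0.27, adjusted p = 0.120 from edgeR, and 0.018 with no filter on low counts). No muscle marker gene passed the filter, and the summed level of the 5 muscle markers was at most 0.06474 CPM in any library. The 7 stellate cell markers, among them the contractile genes Acta2 and Des, all had negative estimates (median -0.42, none called) and summed to 426.2 and 445.7 scaled CPM in WT and 381.1 and 420.0 in DDI2-KO, and their part in the small HSP values was not tested. Hspb8, which works with BAG3 in the selective removal of misfolded proteins, was the most abundant small HSP, with 118.1 and 128.9 in WT and 104.5 and 95.60 in DDI2-KO (log2 fold change -0.30, SE 0.16, adjusted p = 0.298 from edgeR). Hspb1, the heat-inducible HSP25, had 126 reads in WT replicate 1 and 15, 11 and 18 in the other libraries, so that 1 library stood apart. Its log2 fold change was -1.82 with a standard error of 1.00 (adjusted p = 0.338 from edgeR), -2.64 without WT replicate 2 (adjusted p = 0.0196) and 0.30 without WT replicate 1 (adjusted p = 0.901).

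**Figure D4:**
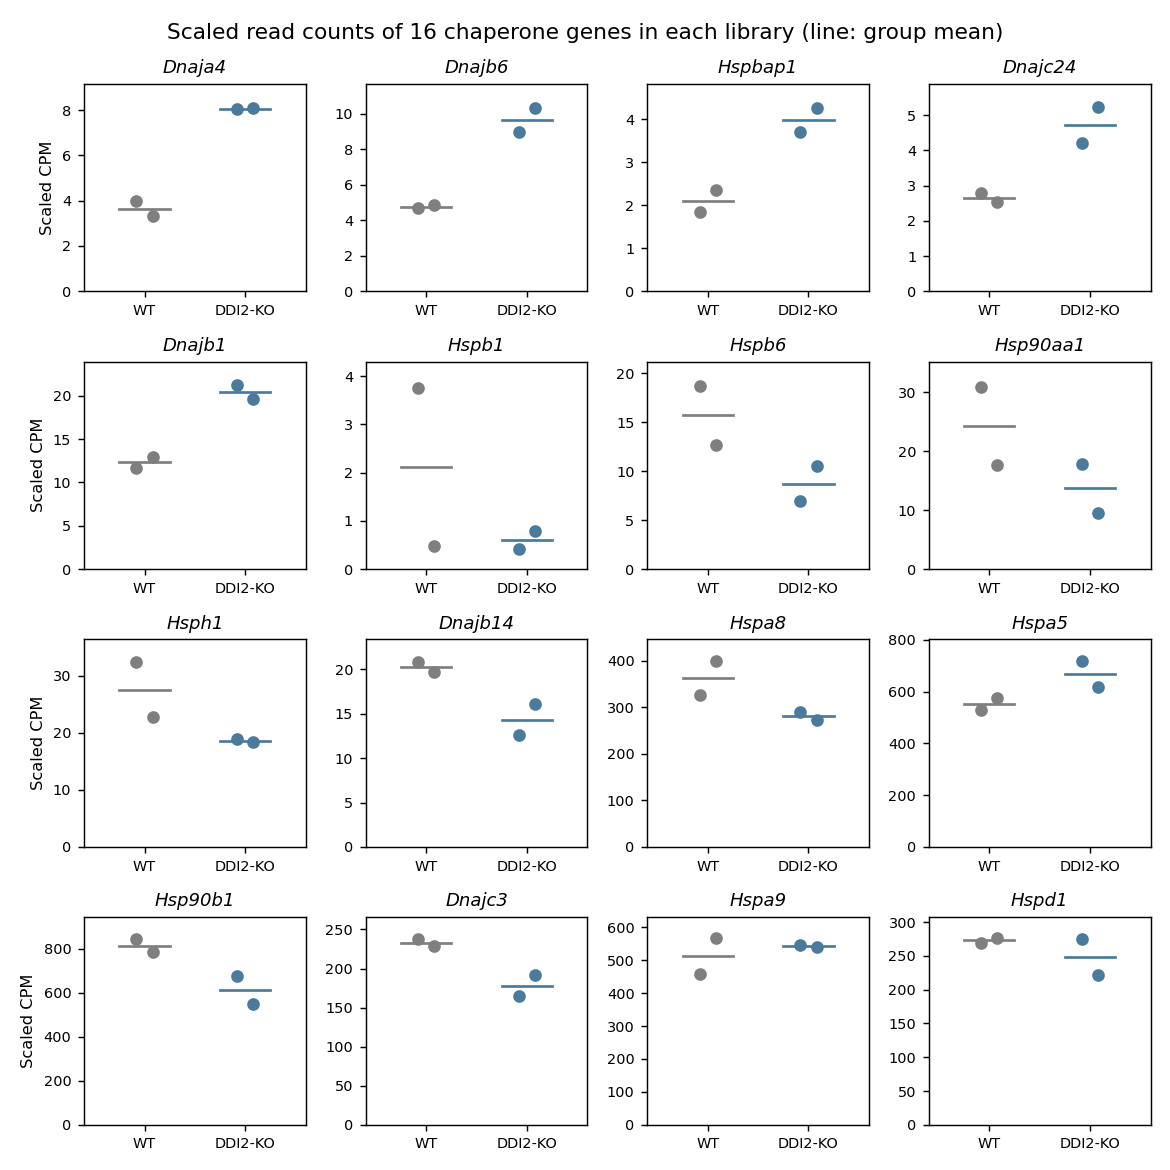
Scaled CPM of 16 chaperone genes in each library, with WT in grey and DDI2-KO in blue. Each point is a library, each line a group mean, and every axis starts at 0. The DDI2-KO points lie above the WT points for Dnaja4, Dnajb6 and Dnajb1 and below them for Hsph1, Hsp90b1 and Dnajc3, and 1 WT library stands apart for Hspb1.

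The 14 ER genes were all tested and none was called, with a smallest adjusted p of 0.152 from edgeR. An unadjusted p under 0.05 was reached by 2 genes in edgeR (14.3%, against 23.5% of all genes). DESeq2 and limma called none of the 14 either. There were 8 positive and 6 negative log2 fold changes, with a median of 0.16. Both DDI2-KO libraries lay above WT in 7 genes (50% of the 14) and below in 5 (35.7%), against 28.0% and 27.7% of all genes. The groups overlapped in only 2 ER genes, Dnajb12 and Dnajc18. The median standard error was 0.1718 for the 14 genes and 0.2172 over all genes, and its part in these shares was not tested.

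The 3 ER genes with an ER stress element in the windows above did not have estimates of the same sign. Hspa5 had 530.7 and 574.4 scaled CPM in WT and 719.6 and 618.7 in DDI2-KO, a log2 fold change of 0.28 (SE 0.18, adjusted p = 0.384 from edgeR). Hsp90b1, known as GRP94, had 841.9 and 782.5 in WT and 673.7 and 550.7 in DDI2-KO, a log2 fold change of -0.41 (SE 0.18, adjusted p = 0.224 from edgeR). Dnajc3, known as p58IPK and an inhibitor of the kinase PERK, had 237.8 and 228.3 in WT and 164.3 and 191.2 in DDI2-KO, a log2 fold change of -0.39 (SE 0.17, adjusted p = 0.218 from edgeR). In each of the 3 the groups did not overlap, with Hspa5 higher and the other two lower in DDI2-KO, and none was called.

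The other luminal DnaJ proteins were also split. Dnajb9, or ERdj4, which restrains the sensor IRE1, had 39.14 and 58.06 scaled CPM in WT and 58.38 and 73.54 in DDI2-KO, the groups being separated by the narrow step from 58.06 to 58.38 (log2 fold change 0.44, SE 0.22, adjusted p = 0.268 from edgeR). Dnajb11, or ERdj3, a cofactor of BiP that is also secreted, had 77.36 and 83.50 in WT and 71.01 and 64.62 in DDI2-KO (log2 fold change -0.25, SE 0.16, adjusted p = 0.382 from edgeR). Dnajb14, a DnaJ protein of the ER membrane that acts in the removal of misfolded membrane proteins, had 20.82 and 19.65 in WT and 12.56 and 16.10 in DDI2-KO and the lowest estimate of the ER genes (log2 fold change -0.50, SE 0.19, adjusted p = 0.161 from edgeR). The 6 membrane DnaJ genes had log2 fold changes from -0.50 to 0.46, with 4 positive, and Dnajc25 was the highest. The summed level of the ER genes was 1983 and 1977 scaled CPM in WT and 1962 and 1769 in DDI2-KO.

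The 8 mitochondrial genes were all tested, with 4 positive and 4 negative log2 fold changes from -0.28 to 0.41, a median of 0.0398 (-0.0128 with upper-quartile factors) and none called. Of the 8, 1 had an unadjusted p under 0.05 in edgeR (12.5%, against 23.5% of all genes). DESeq2 and limma called none of the 8. Hspd1 (HSP60) and Hspe1 (HSP10) encode the chaperonin barrel and its lid and face each other across the shared promoter shown above. Hspd1 had 269.2 and 276.5 scaled CPM in WT and 274.6 and 221.3 in DDI2-KO (log2 fold change -0.14, SE 0.18, adjusted p = 0.695 from edgeR), and its groups overlapped. Hspe1 had 44.94 and 49.88 in WT and 50.26 and 61.05 in DDI2-KO, where both libraries were higher by a narrow margin (log2 fold change 0.23, SE 0.17, adjusted p = 0.444 from edgeR). Of the 50-base stretches of Hspd1 44.8% also occur in other genes, chiefly a pseudogene, and without DDI2-KO replicate 2 its log2 fold change was 0.0185.

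Hspa9, or mortalin, the HSP70 of the matrix, had overlapping values of 458.3 and 567.5 scaled CPM in WT and 547.1 and 538.8 in DDI2-KO (log2 fold change 0.08, SE 0.18, adjusted p = 0.824 from edgeR). Without WT replicate 1 the log2 fold change of Hspa9 was -0.062. Dnaja3, its DnaJ partner in the matrix, had the highest estimate of the mitochondrial genes, with 81.88 and 86.58 in WT and 119.4 and 103.9 in DDI2-KO, both above WT (log2 fold change 0.41, SE 0.16, adjusted p = 0.187 from edgeR). Dnajc19, a J protein of the inner membrane, had 25.61 and 27.80 in WT and 23.99 and 21.10 in DDI2-KO, both lower (log2 fold change -0.24, SE 0.16, adjusted p = 0.410 from edgeR). The summed level of the 8 genes was 957.7 and 1091 scaled CPM in WT and 1100 and 1023 in DDI2-KO, with overlapping groups.

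Of the 13 genes of other or unassigned compartments 11 were tested, with 3 positive and 8 negative log2 fold changes from -0.39 to 0.52 and none called. The highest was Dnajc5, the cysteine string protein of secretory vesicles, with 46.22 and 56.51 scaled CPM in WT and 70.12 and 76.72 in DDI2-KO (adjusted p = 0.122 from edgeR). The 3 nuclear genes Dnajc8, Dnajc9 and Dnajc17 all had negative estimates, from -0.35 to -0.06. Dnajc22, a membrane J protein, was among the 8 genes with the highest level per length in WT and had 90.18 and 95.64 scaled CPM in WT and 137.1 and 99.74 in DDI2-KO (log2 fold change 0.35, adjusted p = 0.312 from edgeR).

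Neither regulator was called. Hsf1 had 12.08 and 12.66 scaled CPM in WT and 11.71 and 10.84 in DDI2-KO, slightly lower in both (log2 fold change -0.13, SE 0.18, adjusted p = 0.703 from edgeR). Hsf2, the heat shock factor tied to development and to proteasome inhibition, had 22.04 and 23.21 in WT and 19.09 and 34.59 in DDI2-KO, so that its DDI2-KO libraries lay on either side of WT (log2 fold change 0.25, SE 0.27, adjusted p = 0.630 from edgeR, and -0.24 without DDI2-KO replicate 2). HSF1 is switched on by release from chaperones and by phosphorylation, which transcript counts do not measure.

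Partner genes of the 3 compartments were taken from lists of known co-chaperones, folding enzymes and stress sensors. Over all genes, 2.53% were called by edgeR and 23.5% reached an unadjusted p under 0.05 in it. DESeq2 called 911 of 12339 genes, and edgeR with no filter on low counts called 1544 of 21099. With lists this short, counts near these shares are no result about the lists. Of 23 cytosolic partners, all tested, 14 had positive and 9 negative log2 fold changes, none was called by edgeR, limma or DESeq2 (4 at an unadjusted p under 0.05 in edgeR), and the median was 0.13. The 8 listed subunits of the chaperonin CCT, which folds actin and tubulin, all had positive values, from 0.13 to 0.46. Stip1, which links HSP70 to HSP90, had 88.13 and 74.83 scaled CPM in WT and 55.59 and 55.22 in DDI2-KO (log2 fold change -0.56, adjusted p = 0.0953 from edgeR). Of 25 ER partners, 12 had positive and 13 negative values, with a median of -0.0001. An unadjusted p under 0.05 was reached by 8 in edgeR, 2 were called by DESeq2 and 3 with no filter on low counts, and the positive values numbered 10 with upper-quartile factors and 15 with library totals. Derl1, a component of the channel through which misfolded proteins leave the ER, was the 1 gene of this list called in the edgeR fit and rose from 83.22 and 85.25 in WT to 166.3 and 137.4 in DDI2-KO (log2 fold change 0.85, SE 0.17, adjusted p = 0.0472 from edgeR). The call of Derl1 was made in 6 of the 14 alternatives (adjusted p from 0.00136 to 0.202) and was lost without WT replicate 1 (0.202), WT replicate 2 (0.149) or DDI2-KO replicate 1 (0.0683). Calr, a lectin chaperone of the ER lumen, had 892.2 and 915.7 in WT and 607.9 and 525.2 in DDI2-KO (log2 fold change -0.67, adjusted p = 0.0764 from edgeR). Of 13 mitochondrial partners, 10 had positive and 3 negative values, with a median of 0.32 and none called by edgeR or limma, 2 at an unadjusted p under 0.05 in edgeR and 2 called by DESeq2. Grpel1, the nucleotide exchange factor of mortalin, had 87.71 and 100.6 in WT and 158.4 and 146.6 in DDI2-KO (log2 fold change 0.70, adjusted p = 0.0668 from edgeR).

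Other features of the libraries moved with the genotype, and their part in the chaperone values was not tested. Of 15 clock genes 11 had negative estimates (median -0.62). Per1 and Nr1d2 were called lower and Nfil3 higher (in 8, 13 and 11 of the 14 alternatives), where 2.53% of all genes were called. Several heat shock genes are known to cycle over the day in mouse liver. The summed level of the clock genes was 569.6 and 761.4 scaled CPM in WT and 463.3 and 385.7 in DDI2-KO. Some clock genes also differed between the WT libraries. Arntl had 15.70 and 4.952 scaled CPM in WT and 15.65 and 23.89 in DDI2-KO, and Dbp 39.92 and 91.63 against 29.17 and 10.44. The called genes were closer in WT, Per1 at 8.953 and 8.221, Nr1d2 at 92.11 and 105.5 and Nfil3 at 12.64 and 16.09. The 2 cold-inducible RNA-binding genes Cirbp and Rbm3 summed to 21.44 and 24.60 in WT and 30.52 and 23.02 in DDI2-KO, and neither was called. The nuclear RNAs Malat1 and Neat1 were both lower in DDI2-KO, summing to 217.2 and 161.6 against 49.11 and 75.07. Of the marker lists of liver cell types, none of the 9 hepatocyte, 7 Kupffer cell, 7 stellate cell, 5 bile duct, 6 lymphocyte or 3 tested neutrophil genes was called in the edgeR fit, and of 6 endothelial genes Stab2 was called lower. Of the Kupffer cell genes 1 was called by DESeq2 and 2 with no filter on low counts. The lymphocyte markers summed to 27.00 and 26.31 in WT and 19.04 and 21.80 in DDI2-KO, and the bile duct markers to 56.42 and 52.79 against 70.39 and 68.67. The hepatocyte markers were the highest of these lists, at 152510 to 183799 scaled CPM in the 4 libraries.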

How the data were processed

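The study sequenced mRNA from whole liver of 2 WT and 2 DDI2-KO mice with a stranded kit. The values the authors deposited are raw counts of reads per Ensembl gene and library, not normalized. The submitters' processing notes name cutadapt 1.8, STAR 2.5.2b, HTSeq 0.6.1 and GRCm38. Their parameters, the annotation and the strand setting are not given in the sources used here. Summary lines were left out. Reads without a unique alignment are held in these lines and not on a gene, so genes with near-identical copies lose reads. Of all reads, those with no feature were 2.95% and 2.96% in WT against 1.63% and 2.36% in DDI2-KO. Those not unique were 37.9% and 32.6% against 31.7% and 30.6%, and those ambiguous 1.44% and 1.59% against 2.25% and 2.37%. Each of these shares separated the groups, and its part in the chaperone values was not tested. Symbols and coordinates are from GENCODE for GRCm38, which held 48349 of the 48709 identifiers, and promoter stretches are from RefSeq.

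Counts were compared with edgeR 4.0.16 in R 4.3.3 (filterByExpr, TMM, glmQLFit with robust estimation, glmQLFTest), fitted on all 4 libraries with no block, and p-values were adjusted by Benjamini-Hochberg over 13699 genes. Limma 3.58.1, with voom or with a trend (a prior count of 2), was an alternative, as was DESeq2 1.42.0. The study named a moderated t-test from an older limma version and gives no filter or scaling, so the limma fits here need not match it. The script was tested on simulated data. The chi-square between libraries of a group, over its degrees of freedom, was 64.7 in WT and 34.7 in DDI2-KO, far above sampling noise, and each counted as a sample. The depth was 22501208 to 34109018 reads, where 3 reads are 0.088 to 0.133 CPM. Reads carry no molecular identifiers.

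The members, compartments and lists were chosen with earlier results of these data known. Named in full were the called members, the 5 highest and 5 lowest log2 fold changes, and a fixed set of core chaperones and regulators. Dnajc5, Dnajc22, Dnajc25, Hspa4, Hspa4l and the named partner genes were chosen after their values were seen. With 2 against 2 libraries an exact two-sided permutation test cannot go below p = 0.333, so sums carry no test.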

Additional observations from a re-analysis of the deposited data

How the results depend on the processing

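Against 2 chaperone genes called, 3 were called under DESeq2 and 2 with RLE factors or library totals, 1 with upper-quartile factors or a mean of at least 1 CPM, 0 under limma-voom, limma-trend or without robust estimation, 5 without the filter on low counts, and 0 to 1 with a library left out, the remaining sample being taken to vary like the other group. With the replicate number as a block 4 were called (Dnaja4, Dnajb6, Dnajb1 and Hsp90aa1), but same-numbered libraries did not deviate together (r = 0.0588 over 13699 genes, with nothing in the labels that pairs them). The 1 gene called without WT replicate 2 was Hspb1, and without DDI2-KO replicate 2 it was Dnaja4. Over all genes, 346 were called, against 911 under DESeq2, 136 under limma-voom, 139 under limma-trend, 1544 without the filter, 152 without robust estimation, 1108 with the block and 153 to 631 with a library left out, and 52.6% of the calls were higher in DDI2-KO, against 39.7% with upper-quartile factors, 60.8% with library totals and 37.4% without WT replicate 2. The ER median of 0.16 was 0.11 with upper-quartile factors and 0.21 with library totals, and 0.11 to 0.20 with a library left out, where the cytosolic median ran from -0.11 to 0.0141 and the mitochondrial median from -0.0657 to 0.0893. With upper-quartile factors the cytosolic and mitochondrial medians were -0.0481 and -0.0128. Over the 27 named genes and 14 settings, 350 values kept their direction and side of the threshold, 15 lost the call, 7 gained it and 5 turned. With a library left out, Hspb1 ran from -2.64 to 0.30 and Hspa9 from -0.062 to 0.24, turning without WT replicate 1, and Hsf2 ran from -0.24 to 0.62, Hspa1b from -0.0195 to 0.90 and Hspd1 from -0.30 to 0.0185, turning without DDI2-KO replicate 2. The causes were not tested. Of the 64 genes 47 kept their sign in every setting. The number of mice limits these comparisons, and genes with under 20 reads, such as Hspa1a, are also limited by depth.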
